A study of Homo sapiens with 9 samples.

Results

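The mRNA levels of 10 genes of the sortilin family, of progranulin and of the lipoprotein receptors were described in 2 prostate cancer cell lines. They were chosen by name, as the genes for sortilin (SORT1), its relatives SORL1, SORCS1 and SORCS2, the sortilin ligands progranulin (GRN) and prosaposin (PSAP), and the lipoprotein receptors LRP1, LRP8, LRP10 and VLDLR. They are 10 of the 28216 genes in the count table. RNA was sequenced from PC3 cells, a line from a bone metastasis that grows without androgen, and from LNCaP cells (clone FCG), a line from a lymph node metastasis that depends on androgen. Polyadenylated RNA was read in 3 libraries per group. The design compared PC3 with LNCaP cells, and LNCaP cells given androgen with LNCaP cells given vehicle.

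All groups carried the genotype WT. PC3 cells were untreated and grew in F12K medium with FBS. LNCaP cells spent 24 h in RPMI medium free of phenol red with charcoal-stripped FBS and then 48 h with 10 nM dihydrotestosterone (LNCaP + DHT) or with 0.01% ethanol (LNCaP + vehicle). Cell line and medium therefore cannot be told apart in either PC3 comparison. The sample labels name DHT, whereas the main text of the study names the synthetic androgen R1881. Each group is 1 established line, and the labels do not state that its replicates were separate cultures. The study's methods speak of independent experiments and of an experimental batch without naming which libraries they cover, so the p-values are taken to measure the spread between these libraries.

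Sortilin and its relatives are VPS10 domain receptors, transmembrane proteins that carry cargo between the Golgi, the cell surface and endosomes. Sortilin takes up secreted progranulin and delivers it to lysosomes, where it is cut into granulins, and prosaposin reaches the same compartment and is cut into saposins, the activators of sphingolipid breakdown. The LDL receptor family holds endocytic receptors for lipoproteins and proteases, and some of its members also pass the signal of reelin into the cell. In the prostate, androgen controls lipid uptake and synthesis along with secretion.

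Library totals over all genes lay between 17397706 and 25640325 counts, and a count of 0 allowed a level of up to 0.118 to 0.165 CPM (the depth-scaled count, here with TMM factors), a limit that covers counting error only. The luminal prostate markers, 8 genes that include KLK3, summed to 10998 to 11937 CPM in LNCaP + DHT, 3292 to 3714 CPM in LNCaP + vehicle and 509 to 864 CPM in PC3 libraries, where KLK2 was at 0. Markers of PC3 cells, 8 genes that include CAV1 and AXL, summed to 4195 to 4914 CPM in PC3 and 17.3 to 46.0 CPM in LNCaP libraries. The 12 markers of fibroblasts, endothelium, blood and macrophages summed to 37.1 to 76.4 CPM over the 9 libraries, with CDH5 at 0 in every group. PC3 replicate 3 stood apart, since 10.2% of 12843 genes lay more than 1.5-fold from the mean of the other PC3 libraries, against 1.81% to 6.41% in the other 8 libraries. Its level was 1.74-fold higher than in the other PC3 replicates for SORL1, 1.61-fold for LRP1, 1.48-fold for LRP10, 1.44-fold for SORCS2 and 1.37-fold for GRN, while SORT1 differed by 1.03-fold. LRP8 was lower there, at 0.665 times their level, and VLDLR and PSAP were 1.12-fold and 1.25-fold higher. The fold changes of PC3 for the 10 genes are therefore also given without it, on the genes tested with all replicates.

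The sequence before the start site is shown for 4 of the genes: GRN and SORT1, the ligand and receptor pair, and SORL1 and LRP1, which had the same order of levels over the 3 groups. The sequences are RefSeq's on GRCh38.p14, 5′ to 3′ on the gene's strand, and end where the first annotated exon begins. They cover chr17:44345052-44345245 (plus strand) for GRN, chr1:109397919-109398168 (minus strand) for SORT1, chr11:121452064-121452313 (plus strand) for SORL1 and chr12:57128233-57128482 (plus strand) for LRP1. Capitals mark matches, on either strand, to the M-box TCACATGA, the E-box CACGTG, the GC box GGGCGG or the CCAAT box.
GRN: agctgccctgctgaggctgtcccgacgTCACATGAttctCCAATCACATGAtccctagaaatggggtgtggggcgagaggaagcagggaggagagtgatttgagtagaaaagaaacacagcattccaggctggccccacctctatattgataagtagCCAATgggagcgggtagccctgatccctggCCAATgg
SORT1: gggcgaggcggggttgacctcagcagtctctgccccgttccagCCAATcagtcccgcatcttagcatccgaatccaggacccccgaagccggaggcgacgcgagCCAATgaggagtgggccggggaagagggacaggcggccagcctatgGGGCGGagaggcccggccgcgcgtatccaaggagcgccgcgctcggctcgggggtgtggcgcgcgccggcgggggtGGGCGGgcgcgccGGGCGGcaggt
SORL1: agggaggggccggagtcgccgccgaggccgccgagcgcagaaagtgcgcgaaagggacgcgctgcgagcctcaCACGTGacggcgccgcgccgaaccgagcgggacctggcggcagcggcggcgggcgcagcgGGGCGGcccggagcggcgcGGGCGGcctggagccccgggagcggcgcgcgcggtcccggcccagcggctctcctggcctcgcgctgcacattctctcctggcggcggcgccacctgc
LRP1: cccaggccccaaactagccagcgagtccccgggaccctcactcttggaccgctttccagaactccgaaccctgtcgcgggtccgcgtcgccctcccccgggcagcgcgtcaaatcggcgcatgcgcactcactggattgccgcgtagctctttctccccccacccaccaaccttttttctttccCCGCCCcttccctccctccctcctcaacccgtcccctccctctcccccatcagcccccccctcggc

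The GRN window held 2 M-boxes, letters that TFE3 and MITF family factors can bind, and one of them shares bases with a CCAAT box. Of 35116 human windows of 250 bases, 0.851% held an M-box. SORL1 held 1 CACGTG, which 6.34% of the windows held, and SORT1 held 3 GC boxes and 2 CCAAT boxes, found in 42.6% and 32.0% of the windows. A match is a description of letters, and the absence of one says only that these letters are not in the window.

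In PC3 against LNCaP + DHT, 9 of the 10 genes passed the filter on low counts (over 3 CPM in at least 3 libraries), and 7 of them passed an adjusted p of 0.05, 5 higher and 2 lower in PC3 cells. Over all 12541 genes tested, 84.0% passed that threshold, 42.9% higher and 41.1% lower. A gene that also reached a 2-fold difference was called, which held for 5 of the genes (4 higher, 1 lower) against 46.0% of all genes tested (24.0% higher, 22.1% lower). The groups did not overlap for 7 of the genes, against 86.4% of all. The median size of the log2 fold change was 2.27 over the genes and 0.90 over all genes tested. SORCS2 passed the filter only through PC3 libraries and so had to differ, here and against LNCaP + vehicle. In both PC3 comparisons it is among the genes that passed, were called higher and did not overlap. It also enters both medians, which it raises, and no median without it is given. In LNCaP + DHT against LNCaP + vehicle, 8 genes were tested, 7 passed (5 higher, 2 lower with androgen) where 74.9% of all 11697 genes did (37.1% higher, 37.8% lower). Of the genes, 2 were called (1 higher, 1 lower), against 14.0% of all (6.54% higher, 7.49% lower). Groups did not overlap for 7 of the genes, against 77.9%. In PC3 against LNCaP + vehicle, 9 were tested and 7 passed (6 higher, 1 lower), against 83.4% of all 12686 genes (42.6% higher, 40.8% lower). There, 6 were called (5 higher, 1 lower), against 43.2% (22.2% higher, 21.0% lower), and the groups did not overlap for 7, against 85.9%. The median size of the log2 fold change was 0.72 for androgen and 1.76 for PC3 against LNCaP + vehicle, beside 0.34 and 0.84 over all genes tested. Tests were edgeR's quasi-likelihood tests with Benjamini-Hochberg adjustment over all genes, and each pair of comparisons shares 3 libraries, so they are not independent of each other. In bulk RNA, fewer expressing cells and less RNA per cell cannot be told apart.

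**Figure D1:**
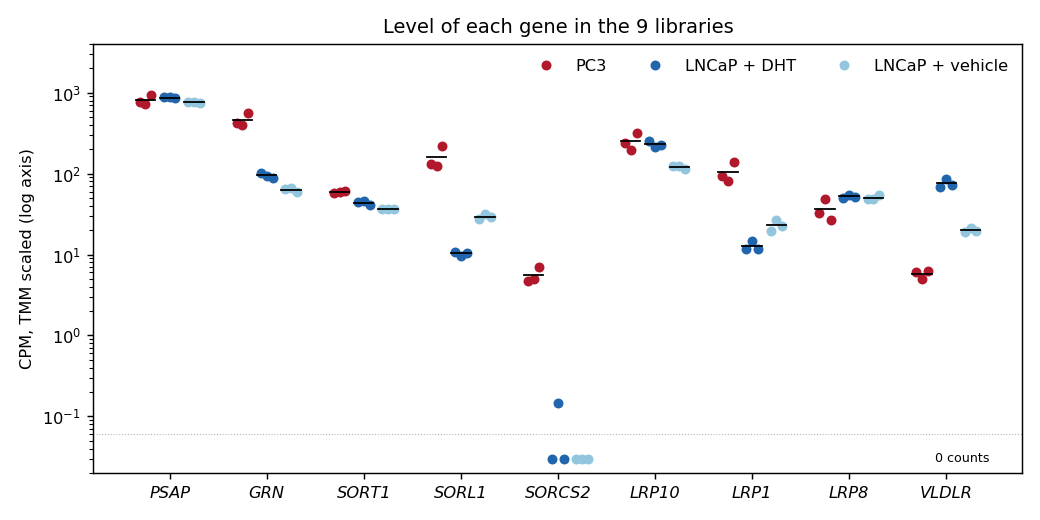
Level of 9 of the genes in each of the 9 libraries, in TMM-scaled CPM on a log axis. Points are libraries, black lines are group means, and points under the dotted line stand for 0 counts. SORL1 (mean 159 CPM) and LRP1 (mean 105 CPM) were highest in PC3, VLDLR was highest in LNCaP + DHT (mean 75.5 CPM), and SORCS2 had counts almost only in PC3 libraries.

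The VPS10 receptors that were tested were higher in PC3 cells, and with androgen SORT1 rose while SORL1 fell. SORT1 (ENSG00000134243.12) lies on chromosome 1 of GRCh38 from 109309568 to 109397918 on the minus strand, with 20 exons and 6990 nt in its MANE Select transcript. PC3 replicates 1 to 3 held 57.1, 59.5 and 60.3 CPM of SORT1. LNCaP + DHT held 44.7, 45.6 and 40.5 CPM and LNCaP + vehicle 36.8, 36.4 and 36.6 CPM. No groups overlapped, and the order was PC3, then LNCaP + DHT, then LNCaP + vehicle. The log2 fold change of PC3 over LNCaP + vehicle was 0.71 (SE 0.06, adjusted p = 1.17e-05 from edgeR), and that of androgen over vehicle was 0.25 (SE 0.06, adjusted p = 0.00155 from edgeR). Without PC3 replicate 3 the PC3 difference was 0.68. All 3 differences of SORT1 passed the test and lay under a fold change of 2. SORT1 varied little within groups, with a coefficient of variation of 2.80% in PC3, 6.29% in LNCaP + DHT and 0.567% in LNCaP + vehicle, against 34.2%, 5.48% and 6.60% for SORL1.

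SORL1 (ENSG00000137642.13), on chromosome 11 from 121452314 to 121633763 (48 exons, 10863 nt), encodes SORLA, which sorts the amyloid precursor protein and also binds lipoproteins. Its level was 132, 124 and 221 CPM in PC3 and 10.8, 9.72 and 10.5 CPM in LNCaP + DHT. The LNCaP + vehicle libraries, at 27.5, 31.3 and 28.9 CPM, lay between them without overlap. SORL1 was 15.3-fold higher in PC3 than in LNCaP + DHT (log2 fold change 3.94, SE 0.24, adjusted p = 1.55e-06 from edgeR) and 5.52-fold higher than in LNCaP + vehicle (2.46, SE 0.22, adjusted p = 1.59e-05 from edgeR). Androgen lowered it 2.81-fold, with a log2 fold change of -1.49 (SE 0.08, adjusted p = 2.10e-09 from edgeR). The log2 differences of PC3 without replicate 3 were 3.62 and 2.14. SORL1 and SORT1 thus moved in opposite directions with androgen.

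SORCS2 (ENSG00000184985.16), on chromosome 4 from 7192538 to 7742836 (27 exons, 6152 nt), encodes a receptor for pro-neurotrophins. In PC3 it had 118, 114 and 176 counts, with 0, 3 and 0 in LNCaP + DHT and 0 in all 3 LNCaP + vehicle libraries. Pooled over the libraries, PC3 held 115 times the level of LNCaP + DHT (95% counting interval 39.2 to 561). Against LNCaP + vehicle it was at least 34.9-fold higher, set against a floor of 3 counts per library. The PC3 libraries other than replicate 3 hold 118 and 114 of these counts. Without replicate 3 the log2 difference against LNCaP + DHT was 6.48, on the genes tested with all replicates. Because SORCS2 passed the filter only through PC3 libraries, its p-values are no support for a difference and are not given. SORCS1 (ENSG00000108018.17), on chromosome 10 from 106573663 to 107164706 (26 exons), had 3, 2 and 0 counts in PC3 and 0 in every LNCaP library, so it was not tested and a difference was not detectable at this depth. SORCS3, the remaining VPS10 receptor, was at 0 in all 9 libraries.

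Divided by transcript length, the balance between the VPS10 receptors also differed. Of the summed family level in CPM per kb, SORL1 made up 60.0% ± 6.71 (SD, n = 3) in PC3, 33.9% ± 1.59 in LNCaP + vehicle and 13.3% ± 1.15 in LNCaP + DHT. SORT1 made up 36.2% ± 6.65, 66.1% ± 1.59 and 86.6% ± 0.974 in the same order. The summed level was 24.0 ± 5.35 CPM per kb in PC3, 7.93 ± 0.150 in LNCaP + vehicle and 7.20 ± 0.384 in LNCaP + DHT. In PC3 replicate 3, which stood apart, SORL1 made up 67.6%, against 57.6% and 54.9% in the others. These shares rest on the canonical lengths (10863 nt for SORL1, 6990 nt for SORT1). With the merged exons of all transcripts (19408 and 9127 nt) SORL1 would lie below SORT1 in PC3 replicate 2. The count ratio of SORT1 to SORL1, chosen for description after its values were seen, had a geometric mean of 0.385 in PC3, 4.21 in LNCaP + DHT and 1.26 in LNCaP + vehicle, with no overlap between groups.

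**Figure D2:**
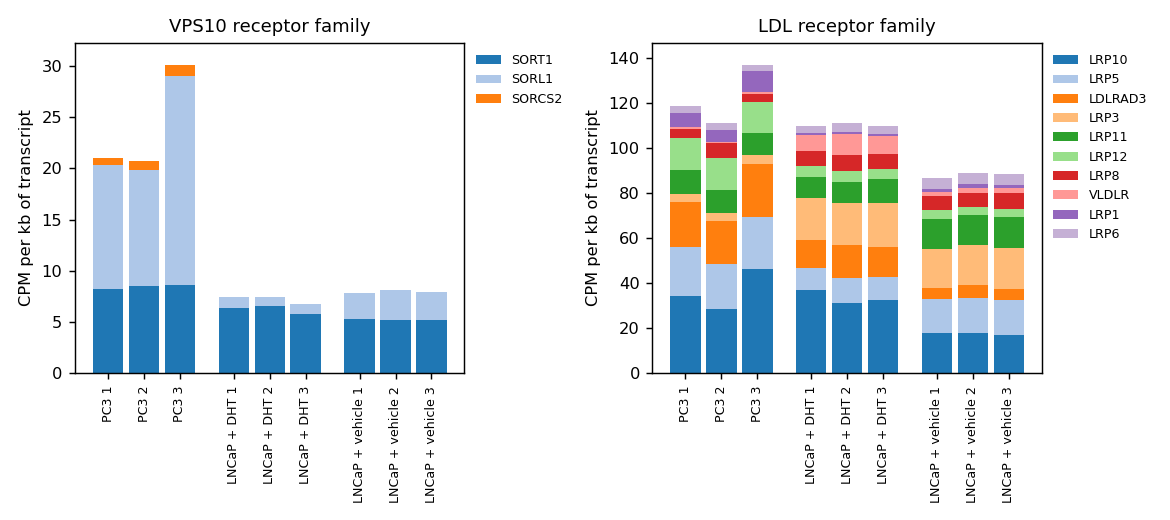
Levels of the VPS10 receptors (left) and of 10 LDL receptor family genes that pass the filter (right) in each library, stacked, in CPM per kb of the canonical transcript. In the left panel SORL1 forms the larger part in PC3 (mean 60.0%) and SORT1 the larger part in both LNCaP groups (means 86.6% and 66.1%). In the right panel the stacked level is highest in PC3 and lowest in LNCaP + vehicle.

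Of the sortilin ligands, GRN was far higher in PC3 than in LNCaP cells and PSAP was not. GRN (ENSG00000030582.19), on chromosome 17 from 44345246 to 44353106 (13 exons, 2130 nt), encodes progranulin, a secreted growth factor and lysosomal protein. Its level was 422, 397 and 558 CPM in PC3, 102, 94.7 and 88.2 CPM in LNCaP + DHT and 64.1, 65.9 and 58.5 CPM in LNCaP + vehicle. The 3 groups did not overlap, and the order was that of SORT1. GRN was 7.42-fold higher in PC3 than in LNCaP + vehicle (log2 fold change 2.89, SE 0.13, adjusted p = 4.25e-07 from edgeR), and 2.71 on the log2 scale without PC3 replicate 3. With androgen GRN rose 1.51-fold (log2 fold change 0.60, SE 0.06, adjusted p = 1.47e-06 from edgeR) and was not called.

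PSAP (ENSG00000197746.15), on chromosome 10 from 71816298 to 71851251 on the minus strand (14 exons, 2748 nt), encodes prosaposin, which binds progranulin. Its level was 769.6, 715 and 927 CPM in PC3, 877, 884 and 853 CPM in LNCaP + DHT and 762, 761 and 752 CPM in LNCaP + vehicle. The PC3 range covered both LNCaP ranges, which did not overlap each other. The log2 fold change of PC3 was -0.12 (SE 0.10, adjusted p = 0.301 from edgeR) against LNCaP + DHT and 0.11 (SE 0.09, adjusted p = 0.319 from edgeR) against LNCaP + vehicle. Both values depended on the PC3 libraries. Without PC3 replicate 3 they were -0.23 (adjusted p = 0.00514 from edgeR) and -0.02, or -0.11 (adjusted p = 0.128 from edgeR) and 0.08 where the filter was also applied anew. Androgen raised PSAP by 0.20 on the log2 scale (SE 0.04, adjusted p = 0.000164 from edgeR). With all 9 libraries in one fit, the adjusted p of that rise was 0.067.

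Within a library, the ratio of GRN to SORT1 counts needs no scaling between libraries. It was 7.38, 6.67 and 9.26 in PC3, 2.28, 2.08 and 2.18 in LNCaP + DHT and 1.74, 1.81 and 1.60 in LNCaP + vehicle. The ratio was 3.54-fold higher in PC3 than in LNCaP + DHT and 1.27-fold higher in LNCaP + DHT than in LNCaP + vehicle. The PSAP to GRN ratio ran the other way, with geometric means of 1.76 in PC3, 9.20 in LNCaP + DHT and 12.1 in LNCaP + vehicle. In each of the 6 comparisons of these ratios the groups did not overlap, and the exact two-sided permutation test over 3 against 3 libraries gave p = 0.1 (adjusted 0.1), the smallest it can give, so 0.05 could not be reached.

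**Figure D3:**
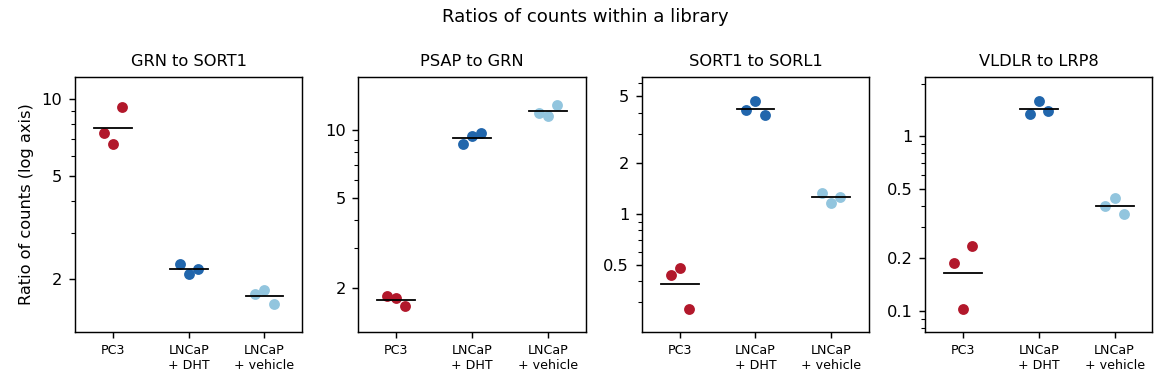
Ratios of counts within each library on log axes. Points are libraries and black lines are geometric means. GRN to SORT1 is highest in PC3 (6.67 to 9.26), PSAP to GRN is lowest there (1.66 to 1.83), and SORT1 to SORL1 and VLDLR to LRP8 are highest in LNCaP + DHT.

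Among the lipoprotein receptors, LRP1 and VLDLR stood at opposite ends. LRP1 (ENSG00000123384.14), on chromosome 12 from 57128483 to 57213361 (89 exons, 14923 nt), encodes a large endocytic receptor for apolipoprotein E, proteases and their inhibitors. Its level was 93.8, 80.2 and 140.1 CPM in PC3, 11.7, 14.9 and 11.5 CPM in LNCaP + DHT and 19.4, 26.5 and 22.7 CPM in LNCaP + vehicle. The groups did not overlap. LRP1 was 8.25-fold higher in PC3 than in LNCaP + DHT (log2 fold change 3.04, SE 0.22, adjusted p = 3.99e-06 from edgeR) and 4.65-fold higher than in LNCaP + vehicle (2.22, SE 0.21, adjusted p = 2.47e-05 from edgeR). Without PC3 replicate 3 the log2 differences were 2.78 and 1.94. Androgen lowered LRP1 1.80-fold, with a log2 fold change of -0.85 (SE 0.12, adjusted p = 2.87e-05 from edgeR).

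VLDLR (ENSG00000147852.17), on chromosome 9 from 2621182 to 2660056 (19 exons, 9213 nt), encodes a receptor for triglyceride-rich lipoproteins and for reelin. PC3 libraries held 6.14, 5.00 and 6.24 CPM of VLDLR. LNCaP + DHT libraries held 67.6, 86.7 and 72.2 CPM, and LNCaP + vehicle libraries 19.1, 21.5 and 19.6 CPM. The order, with no overlap, was the reverse of that of SORL1 and LRP1. VLDLR was 13.0-fold lower in PC3 than in LNCaP + DHT (log2 fold change -3.70, SE 0.13, adjusted p = 1.06e-07 from edgeR) and 3.39-fold lower than in LNCaP + vehicle (-1.76, SE 0.11, adjusted p = 2.53e-06 from edgeR). Without PC3 replicate 3 the log2 differences were -3.76 and -1.83. Androgen raised VLDLR 3.77-fold (log2 fold change 1.92, SE 0.09, adjusted p = 5.19e-10 from edgeR), and VLDLR was one of the 765 genes, 6.54% of those tested, called higher with androgen.

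LRP8 (ENSG00000157193.18), on chromosome 1 from 53242364 to 53328469 on the minus strand (19 exons, 7704 nt), encodes ApoER2, the other reelin receptor of the family. Its level was 32.9, 49.0 and 26.7 CPM in PC3, 50.3, 54.7 and 51.4 CPM in LNCaP + DHT and 48.0, 48.4 and 54.8 CPM in LNCaP + vehicle. PC3 replicate 2 was 1.65-fold above the other PC3 libraries and reached the LNCaP + vehicle range. LRP8 was lower in PC3 than in LNCaP + DHT by -0.52 on the log2 scale (SE 0.21, adjusted p = 0.0457 from edgeR). Leaving out PC3 replicate 1 or any of the 3 LNCaP + DHT replicates took the adjusted p above the threshold (0.0547 to 0.231 from edgeR), as did a filter of at least 10 counts in every library (0.0584). The log2 difference was -0.34 without PC3 replicate 1, and larger than with all libraries without each LNCaP + DHT replicate (-0.62, -0.58 and -0.64). Without PC3 replicate 3 it was -0.35 (adjusted p = 0.048), or -0.23 (adjusted p = 0.157) where the filter was applied anew (both from edgeR). Against LNCaP + vehicle the log2 difference was -0.45 (SE 0.21, adjusted p = 0.0803 from edgeR), or -0.29 without PC3 replicate 3, and with androgen it was 0.05 (SE 0.06, adjusted p = 0.437 from edgeR). Opposite-strand reads over LRP8, where 5 antisense genes are annotated, were 6.13% to 7.72% of the sense counts in LNCaP libraries and 2.58% to 3.85% in PC3 libraries, and the counts use strand.

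LRP10 (ENSG00000197324.9), on chromosome 14 from 22871740 to 22881713 (7 exons, 6892 nt), encodes a receptor that moves between the Golgi and endosomes. Its level was 237, 195 and 318 CPM in PC3, 254, 216 and 223 CPM in LNCaP + DHT and 123, 124 and 116 CPM in LNCaP + vehicle. The LNCaP + DHT range lay within that of PC3, and LNCaP + vehicle lay below both. Androgen raised LRP10 1.92-fold (log2 fold change 0.94, SE 0.06, adjusted p = 1.40e-08 from edgeR), just under the fold change of 2. PC3 was 2.10-fold higher than LNCaP + vehicle (log2 fold change 1.07, SE 0.16, adjusted p = 0.000322 from edgeR), just over the fold change of 2. That call was lost without PC3 replicate 3 (0.85 on the log2 scale, or 0.95 with the filter applied anew) and without any of the LNCaP + vehicle replicates (0.99, 0.98 and 0.94), while the adjusted p stayed under 0.05 each time. Against LNCaP + DHT the log2 difference of PC3 was 0.11 (SE 0.16, adjusted p = 0.547 from edgeR), and -0.10 without PC3 replicate 3 (0.03 with the filter applied anew).

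**Figure D4:**
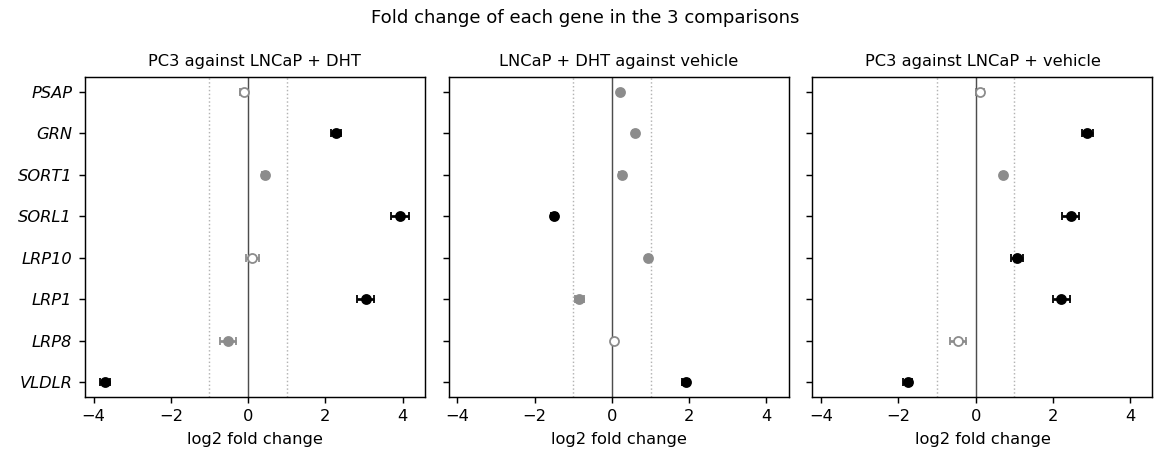
Log2 fold changes of 8 of the genes in the 3 comparisons (points) with standard errors (bars), from edgeR. Black points were called, grey points passed the adjusted p of 0.05 alone, open points passed neither, and dotted lines mark a fold change of 2. VLDLR was lower in PC3 (-3.70 and -1.76) and higher with androgen (1.92), and SORL1 showed the reverse signs (3.94, 2.46 and -1.49).

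Per kb of the canonical transcript, PSAP and GRN were the most abundant of the 10 genes in every group and LRP10 the next. In PC3, PSAP (293 CPM per kb) and GRN (215) overlapped, and LRP10 (36.3), SORL1 (14.6), SORT1 (8.43), LRP1 (7.02) and LRP8 (4.70) followed, with SORCS2 (0.897) and VLDLR (0.629) far below. SORT1 overlapped LRP1, and LRP1 overlapped LRP8. In LNCaP + DHT the order was PSAP (317), GRN (44.5), LRP10 (33.5), VLDLR (8.20), LRP8 (6.77), SORT1 (6.24), SORL1 (0.952) and LRP1 (0.850), and only SORL1 and LRP1 overlapped among these. In LNCaP + vehicle it was PSAP (275.9), GRN (29.5), LRP10 (17.5), LRP8 (6.54), SORT1 (5.24), SORL1 (2.69), VLDLR (2.17) and LRP1 (1.53), with no overlaps. On these lengths VLDLR moved from the second lowest of the detected genes in LNCaP + vehicle to the fourth highest with androgen. When lengths were the merged exons of all transcripts, 3 of the 10 genes kept their place in LNCaP + DHT, namely PSAP and the nearly absent SORCS2 and SORCS1. There the mean of LRP10 lay above that of GRN, and that of SORT1 above that of VLDLR. The places of GRN, LRP10 and VLDLR thus depend on the length used.

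The pathway genes around these receptors were counted on the same tests. Of 17 genes of the LDL receptor family, 11 passed the filter. Androgen raised 6 and lowered 4 of them, with 3 rises called, where 37.1% and 37.8% of all genes tested rose and fell and 6.54% were called higher. Relative to LNCaP + DHT 4 were higher and 4 lower in PC3 (42.9% and 41.1% of all genes), and relative to LNCaP + vehicle 6 were higher and 4 lower (42.6% and 40.8% of all genes). The median log2 difference was 0.08, 0.10 and 0.51 for PC3 against LNCaP + DHT, for androgen and for PC3 against LNCaP + vehicle, beside 0.04, -0.01 and 0.03 over all genes tested. LDLRAD3 rose by 1.36 and LRP12 by 0.40 on the log2 scale with androgen, while the WNT co-receptors LRP5 and LRP6 changed by -0.57 and -0.41 and LRP11 by -0.47. LRP3 was 14.7 ± 1.76 CPM (SD, n = 3) in PC3 and 72.1 ± 1.89 in LNCaP + vehicle, a log2 fold change of -2.27 (SE 0.09, adjusted p = 2.09e-07 from edgeR). Summed over 10 of the tested family genes, the level was 122 ± 13.4 CPM per kb (SD, n = 3) in PC3, 110.3 ± 0.521 in LNCaP + DHT and 88.1 ± 1.09 in LNCaP + vehicle, with LRP10 the largest part in PC3 and LNCaP + DHT.

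Of 26 genes of the sorting machinery, all tested, 6 were higher and 12 lower in PC3 than in LNCaP + DHT (42.9% and 41.1% of all genes). Of them 3 and 7 were called, where 24.0% and 22.1% of all genes were. The median log2 difference was -0.10, beside 0.04 over all genes tested. PACS1, an adaptor that returns furin and other cargo to the Golgi, rose with androgen from 40.1 ± 0.756 to 233 ± 8.79 CPM (log2 fold change 2.54, SE 0.04, adjusted p = 7.49e-14 from edgeR). GGA3, an adaptor that sorts sortilin into vesicles, was 122 ± 11.6 CPM in PC3 and 30.8 ± 0.504 in LNCaP + DHT. ADAM17, a protease that sheds membrane proteins, was 89.4 ± 14.2 CPM in PC3 and 19.3 ± 0.649 in LNCaP + vehicle. HSPA12A, a SORL1 partner, was 0.661 ± 0.249 CPM in PC3 and 16.0 ± 1.29 in LNCaP + vehicle. It passed the filter only through LNCaP libraries and so had to differ. With androgen 15 of the 26 rose and 5 fell, where 37.1% and 37.8% of all genes did, and 2 rises were called (6.54% of all genes). Against LNCaP + vehicle 10 were higher and 11 lower in PC3 (42.6% and 40.8% of all genes). Of these 4 and 3 were called, where 22.2% and 21.0% of all genes were.

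Of 21 ligands and co-receptors of the VPS10 receptors, 9 were tested in each PC3 comparison. Against LNCaP + DHT 6 were higher and 3 lower in PC3 (42.9% and 41.1% of all genes). Against LNCaP + vehicle 7 were higher and 2 lower (42.6% and 40.8% of all genes). Some of these genes, NTSR1 among them, passed the filter only through PC3 libraries and so had to differ. NTSR1, the neurotensin receptor, held 3371 to 5890 counts per library in PC3 cells, against 0 to 12 in LNCaP + DHT. CTSH, a lysosomal cathepsin, was 15.2 ± 3.20 CPM in PC3 and 184 ± 11.5 in LNCaP + vehicle. APP, the amyloid precursor protein, rose with androgen from 380.5 ± 6.37 to 1292 ± 74.2 CPM (log2 fold change 1.77, SE 0.05, adjusted p = 3.31e-12 from edgeR), whereas its sorting receptor SORL1 fell. LIF, a cytokine of the interleukin-6 family, fell from 6.66 ± 1.58 to 2.05 ± 0.752 CPM. For androgen, LIF passed the filter only through LNCaP + vehicle libraries and so had to differ. In all, 3 of the 5 genes tested with androgen rose and 2 fell, where 37.1% and 37.8% of all genes did.

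Of 14 genes that handle or cut progranulin, 10 were tested against LNCaP + DHT, and 4 were higher and 3 lower in PC3 (42.9% and 41.1% of all genes). Of 11 tested against LNCaP + vehicle, 6 were higher and 2 lower (42.6% and 40.8% of all genes). MMP14, a membrane protease that cuts progranulin, held 1966 to 2566 counts in PC3 and 2 to 23 in LNCaP + DHT libraries. GPNMB, a lysosomal membrane protein, held 1 to 3 counts in PC3 and 57 to 63 in LNCaP + vehicle libraries. MMP14 passed the filter only through PC3 libraries and GPNMB only through LNCaP + vehicle libraries, so both had to differ. With androgen, 3 of 10 rose and 1 fell, where 37.1% and 37.8% of all genes did. None was called, where 14.0% of all genes were (edgeR's quasi-likelihood test).

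Of 17 genes of lysosomal lipid handling, which include genes outside saposin-dependent breakdown such as NPC1, 16 were in the table and 14 were tested. Relative to LNCaP + DHT, 8 were lower in PC3 and 4 higher, where 41.1% and 42.9% of all genes were. Of the 8, 6 were called, where 22.1% of all genes were called lower. The median log2 difference was -0.70. HEXA, a subunit of beta-hexosaminidase, passed the filter only through LNCaP libraries and so had to differ. It had 0 counts in all 3 PC3 libraries and 1446 to 1641 in LNCaP + DHT libraries, at least 601-fold lower in PC3 and at least 442-fold lower than in LNCaP + vehicle against the floor of 3 counts. With androgen 9 of the 14 rose and 2 fell, where 37.1% and 37.8% of all genes did. The largest rise was that of NPC1, the lysosomal cholesterol exporter, from 47.0 ± 6.40 to 221 ± 25.4 CPM (log2 fold change 2.24, SE 0.10, adjusted p = 2.63e-10 from edgeR). Against LNCaP + vehicle 5 were higher and 6 lower in PC3 (42.6% and 40.8% of all genes).

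Of 22 chaperones, adaptors, ligands and degraders of LDL receptors, 19 were tested in each PC3 comparison, and 12 were higher and 7 lower in both. Over all genes, 42.9% and 41.1% were higher and lower against LNCaP + DHT, and 42.6% and 40.8% against LNCaP + vehicle. Of the 12, 11 were called in each, where 24.0% and 22.2% of all genes were called higher. PLAU, the urokinase that LRP1 clears, held 10868 to 15012 counts in PC3 and 0 to 67 in LNCaP + DHT libraries. RELN, the ligand of VLDLR and LRP8, fell with androgen from 7.14 ± 0.911 to 1.27 ± 0.404 CPM, while VLDLR rose. THBS1, a ligand of LRP1, rose from 2.23 ± 0.168 to 7.08 ± 1.27 CPM, and TFPI was 32.1 ± 1.78 CPM in PC3 and 93.3 ± 5.60 in LNCaP + vehicle. For androgen, RELN passed the filter only through LNCaP + vehicle libraries and THBS1 only through LNCaP + DHT libraries. Both therefore had to differ, and their p-values are not given. With androgen 5 of 13 rose and 6 fell, where 37.1% and 37.8% of all genes did. Some of these genes passed the filter only through PC3 libraries and so had to differ. Without PC3 replicate 3 the same numbers, 12 and 7, were higher and lower in both PC3 comparisons, with 11 and 10 of the rises called. In the other lists, leaving it out moved no count of higher or lower genes by more than 2.

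The genes whose pattern over the 9 libraries lay nearest were found by the root mean square difference of centred log2 CPM, among 12843 genes. For SORL1 they were ADCY7 (0.20), FAM131C (0.20) and ASPH (0.22), and for LRP1 they were ZNF251 (0.09), ELFN2 (0.11) and CDK14 (0.15). SORL1 and LRP1 were each other's nearest among the 10 genes, at 0.40. For SORT1 the nearest were UBE2Q1 (0.07), VPS26C (0.07) and COX6C (0.07), and for GRN they were ZFYVE1 (0.10), WNT9A (0.11) and TSPAN4 (0.12). VLDLR lay nearest to CORO2A (0.15), PPM1K (0.16) and CDYL2 (0.21), and PSAP to VPS51 (0.04), MAN2B1 (0.05) and SLK (0.05). LRP10 lay nearest to RNF181, SYVN1 and TNIP1, LRP8 to USP13, DLAT and HAUS3, and SORCS2 to CACNG8, ARL10 and SCN9A.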

How the data were processed

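RNA was sequenced in 9 libraries of PC3 and LNCaP cells, 3 per group. The authors trimmed adapters (cutadapt 4.1), aligned reads to GRCh38 (STAR 2.7.7a), removed PCR duplicates with UMI-tools 1.1.2 and deposited counts, whole reads per gene symbol and library without normalisation, with tool versions taken from the submitters' processing notes. All 253944 values of their table equalled the forward-strand column of the deposited STAR counts, and opposite-strand counts were 2.38% to 3.15% of them.

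Genes with over 3 CPM in at least 3 libraries of a comparison were tested with edgeR 4.0.16 (R 4.3.3), TMM factors and the quasi-likelihood F test, and called where the adjusted p was under 0.05 and the difference reached 2-fold. The study's model had a batch term, which was left out because the batches are not named in the sources used here. Levels in CPM were scaled with TMM factors from the 9 libraries together. Replicate numbers are shared by the groups. Deviations from the group means correlated between same-numbered LNCaP + DHT and LNCaP + vehicle libraries with 0.21, 0.23 and 0.19, so the numbers pair these libraries, as judged from the counts. The androgen tests printed above leave this pairing out, and a fit with the replicate number as a block is among the alternatives. PC3 libraries gave no such sign.

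Lengths and positions come from GENCODE 44, which held 25696 of the 28216 symbols, and 0 of the genes' 74-nt stretches occur in transcripts of other genes (the genome was not searched). Promoters come from RefSeq, where PSAP and SORCS2 had no match, and the windows of LRP8 and VLDLR, which lie mostly or wholly in annotated exons, are not printed. The rule for named genes covers the 10 genes, the VPS10 and LDL receptor family genes that pass the filter and, per pathway list and comparison, the called gene that rose most and the one that fell most. Some genes the rule covers are not reported here, while the tests and the counts over lists include them. The 10 genes and all lists were chosen with earlier results of these data known. The tests were tested on simulated data. Alternatives were DESeq2 (1.42.0) size factors and Wald test, the likelihood ratio test, the replicate block, other filters, unstranded counts, one fit of all libraries and leaving out each library.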

Additional observations from a re-analysis of the deposited data

How the results depend on the processing

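The number of genes called was 5773 for PC3 against LNCaP + DHT, 1641 for androgen and 5485 for PC3 against LNCaP + vehicle. Without the filter on low counts it was 9147, 2941 and 8713, and with the adjusted p alone 10530, 8763 and 10577. The replicate block gave 5756, 1638 and 5495, and changed no call of the 10 genes in the quasi-likelihood test. Of the single genes' values under an alternative, 379 kept their direction and side of the adjusted p threshold, 7 lost the threshold, 7 gained it and 7 reversed. The reversals were PSAP in PC3 against LNCaP + DHT (0.04 without PC3 replicate 1, 0.083 without replicate 2, with a range of -0.23 to 0.083 over all single libraries left out) and against LNCaP + vehicle (-0.0017 without LNCaP + vehicle replicate 3, -0.0205 without PC3 replicate 3), and LRP10 in PC3 against LNCaP + DHT (-0.03 without LNCaP + DHT replicate 2, -0.02 without replicate 3, -0.10 without PC3 replicate 3). The cause was not tested. LRP8 in PC3 against LNCaP + vehicle passed with the DESeq2 Wald test (adjusted p = 0.0374), with the block and likelihood ratio test (0.0282), with all 9 libraries in one fit (0.0282) and without PC3 replicate 2 (0.00109 from edgeR). LRP10 without PC3 replicate 2 passed against LNCaP + DHT (0.38, adjusted p = 0.0293 from edgeR), as did PSAP against LNCaP + vehicle (0.27, adjusted p = 0.0234 from edgeR). Leaving out PC3 replicate 3 on the genes tested with all replicates was chosen after seeing the data, since the filter otherwise drops genes such as SORCS2 that reach 3 CPM only in PC3. LRP10 in PC3 against LNCaP + vehicle lost its call by fold alone, at 0.94 to 0.99, without any LNCaP + vehicle library, and without PC3 replicate 3. With merged exon lengths, 3 of the 10 genes kept their place in the LNCaP + DHT order, and LRP10 lay above GRN.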
